A study of Homo sapiens with 6 samples.

Results

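The 10 early genes described here are the transcription factors EGR1, EGR2 and EGR3, the orphan nuclear receptors NR4A1, NR4A2 and NR4A3, the immediate early response genes IER2, IER3 and IER5, and ZFP36. They were taken by name from the table of normalised reads, after Ensembl identifiers were mapped to symbols, and all 10 were found among its 26748 genes. The table compares the M14 line, an established human melanoma line, in conventional adherent culture (2D, 3 libraries) with M14 cells grown without attachment as melanospheres, multicellular aggregates in suspension (3D, 3 libraries). No treatment or genetic change is named for either culture. The study asked how cell populations differ between the cultures, with putative cancer stem cells in mind. The libraries are called 2D-1 to 2D-3 and 3D-1 to 3D-3. Whether replicates came from separate cultures is not said in the labels, so each p-value reflects library-to-library spread that may be technical.

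Immediate early genes are transcribed within minutes of a stimulus such as a growth factor or stress, from factors that are already present in the cell, chiefly serum response factor (SRF) with its ternary complex partners and the cyclic AMP responsive factor CREB. Their transcripts are short-lived, so the level of such a gene reflects recent signalling. EGR proteins are zinc finger factors that bind GC-rich sites, NR4A proteins are nuclear receptors that act without a classical ligand and in pigment cells respond to melanocortin and cyclic AMP, and ZFP36 (tristetraprolin) binds AU-rich elements in the 3' ends of messenger RNAs and speeds their decay.

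Values are normalised counts, that is, reads divided by 1 size factor per library, with 16567763 to 19954987 reads per library. Of the 26748 genes, 15598 had a mean of at least 10 and were tested with limma on log2(value + 1), with Benjamini-Hochberg adjustment over all of them and a threshold of 0.05. Differences are on that scale, where the pseudocount shrinks those of rare genes. The libraries did not lie equally close within a culture: across genes, log2 values of 2D-1 and 2D-2 correlated at r = 0.984, and 2D-3 with them at 0.943 to 0.945, while 3D-2 correlated at 0.966 to 0.967 with the other 3D libraries. The share of reads from the mitochondrial genome was 0.528% to 1.49% in 2D and 4.28% to 5.76% in 3D. Of 9 melanocytic markers, MITF and PMEL were well expressed, but SOX10, MLANA, S100B, TYR and TYRP1 were at 37.0 or below in every library, so most defining markers of a pigment cell were near 0. The melanocytic list summed to 1612 to 1905 in 2D and 979 to 1750 in 3D, but its members went different ways. MITF, the master regulator of pigment cells, fell from 887 to 1295 in 2D to 271 to 309 in 3D (log2 difference -1.95, adjusted p = 0.00077). DCT, a melanin enzyme, fell from 38.4 to 118 to at most 1.86 (adjusted p = 0.0014), and PMEL, at 227 to 753 and 620 to 1377, missed the threshold (1.41, adjusted p = 0.053). S100A1 rose by 2.32 (adjusted p = 0.020). The 4 fibroblast markers found summed to 2042 to 6539 in 2D and 9263 to 12212 in 3D, with DCN at 0 to 3.88. The 4 endothelial markers summed to 39.5, 55.3 and 318 in 2D and 138 to 187 in 3D, with KDR at 0 to 2.14. The 3 leukocyte markers found summed to 21.0 to 63.7 and 66.9 to 133, and the 2 keratinocyte markers found to 30.5 to 60.8 and 7.76 to 33.4. The part of these differences in the results below was not tested. In bulk RNA, fewer cells that express a gene and less RNA per cell cannot be told apart.

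Between the cultures, 1 early gene fell, 1 rose and 8 did not pass the test. NR4A3 fell in 3D (log2 difference -3.16), and IER3 rose by 2.16 at a low level. IER3 reached the mean needed for testing only through the 3D libraries, where it was high, so it adds nothing to the count of genes higher. Of all genes tested, 24.1% were called, 11.6% lower and 12.5% higher, so 1 of 10 in each direction is near the background. edgeR on recovered reads also called 1 higher (12.5% of all genes) and 1 lower (11.0%), and DESeq2 called 1 higher (15.5%) and 2 lower (14.9%) among 7 genes, since it gave EGR1, EGR2 and NR4A1 no adjusted p. The pattern that stood out was within the adherent culture: EGR1, EGR2, EGR3, NR4A1, NR4A2, IER2 and ZFP36 were all highest in 2D-3, above both other 2D libraries by at least 1 on the log2 scale. Among all genes tested, 7.73% had such a gap and 1.48% a gap of at least 2. EGR2 and EGR3 had a mean high enough for testing only because of 2D-3, so they add nothing to this count. Of the other 8 genes, 5 had a gap of at least 1 (7.53% of the 15533 genes that reached that mean without 2D-3) and 3, EGR1, NR4A1 and ZFP36, one of at least 2 (1.40%). A single library allows no test. The same library had the highest melanocytic (1905), fibroblast (6539), endothelial (318) and leukocyte (63.7) marker sums of the adherent culture, but not the highest keratinocyte sum. It held SOX10 at 37.0, TYR at 33.9, DCT at 118, PDGFRB at 536 and CDH5 at 268 normalised counts, each above both other 2D libraries, and DCN and KDR at 0. MITF went the other way, at 887 against 1210 in 2D-1 and 1295 in 2D-2, while the rest of the melanocytic list was above both. The part of these genes in the pattern was not tested.

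**Figure D1:**
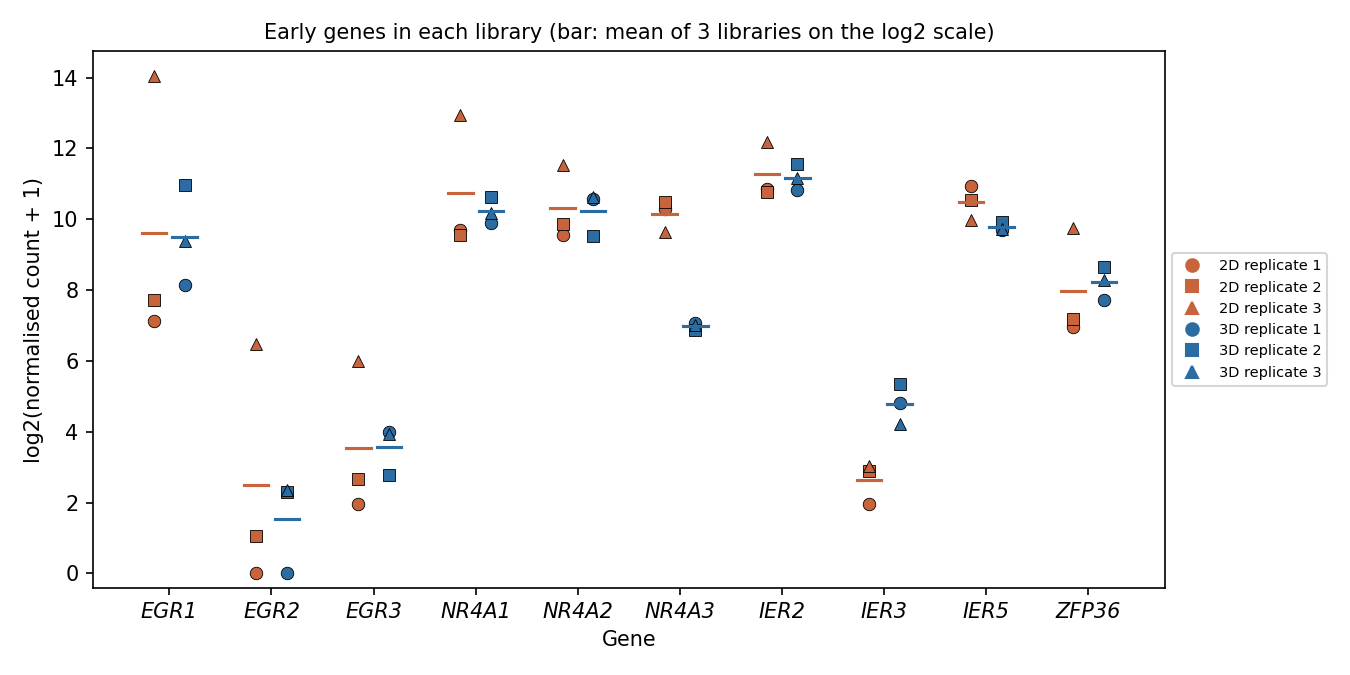
Level of each early gene in each library, as log2(normalised count + 1), with 2D in orange, 3D in blue, symbol shape for the replicate number and a bar for the mean of 3 libraries. The 2D-3 triangle lies at the top for 7 genes, from EGR1 (16787 normalised counts) to EGR3 (62.7), while NR4A3 shows 2 separate groups.

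EGR1 (ENSG00000120738, chromosome 5, 138465490 to 138469315, GRCh38, plus strand, 2 exons) is the best known of the family, a growth factor responsive regulator. It had 138, 209 and 16787 normalised counts in 2D replicates 1 to 3, and 284, 2008 and 673 in 3D replicates 1 to 3. The cultures overlapped: 2 adherent libraries were the lowest of all 6 and the third was the highest, with 3D-2 next. The ratio of 2D-3 to the mean of the other 2D libraries was 96.6, and the range within 2D, 6.91 on the log2 scale, ranked 6 among the 15598 genes, whose median range was 0.64. The means were 5712 ± 9592 (SD, n = 3) in 2D and 988 ± 904 (SD, n = 3) in 3D. Over all libraries the difference was -0.12 (SE 1.61, 95% interval -3.79 to 3.56, adjusted p = 0.97), an interval that holds large changes in both directions. On recovered reads it was -2.47 with edgeR (adjusted p = 0.27) and -2.50 with DESeq2. Without 2D-3 EGR1 was higher in 3D by 2.09 (adjusted p = 0.031), and by 1.36 (adjusted p = 0.0038) when 3D-2 was left out as well. Both libraries stood apart in these same values. Here and below, fits without them describe the remaining libraries and are no support for a rise in 3D.

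EGR2 (ENSG00000122877, chromosome 10, 62811996 to 62919900, minus strand), a factor of Schwann cell myelination, was at the limit of detection outside 1 library. It had 0, 1 and 86 reads in 2D replicates 1 to 3 and 0, 4 and 4 in 3D, which is 0, 1.07 and 88.4 and then 0, 3.88 and 4.13 normalised counts. A count of 0 allows up to 2.86 normalised counts in 2D-1 and 2.78 in 3D-1. Again 2D-3 alone was high, and the other 5 libraries did not separate by culture. The difference was -0.96 (SE 1.58, 95% interval -4.56 to 2.63, adjusted p = 0.68) with all libraries, -3.39 with edgeR (adjusted p = 0.17), -3.45 with DESeq2 and 1.02 (adjusted p = 0.47) without 2D-3.

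The promoters of EGR1 and EGR2 are shown because these are the genes with the 2 largest gaps of 2D-3 among the 10, and that of NR4A3 because it moved the other way. Each line is the 250 bases before a RefSeq transcription start (GRCh38.p14), 5' to 3' on the gene's strand: chr5:138465229-138465478 (plus) for EGR1, chr10:62816367-62816616 (minus) for EGR2, which has 3 listed starts, and chr9:99821635-99821884 (plus) for NR4A3. Capitals mark matches to the CArG box, the site of SRF, to TGACG, the core of the cyclic AMP response element, on both strands, and to GCGNGGGCG, the site of EGR proteins, on both strands. No matches overlapped one another.
EGR1 promoter: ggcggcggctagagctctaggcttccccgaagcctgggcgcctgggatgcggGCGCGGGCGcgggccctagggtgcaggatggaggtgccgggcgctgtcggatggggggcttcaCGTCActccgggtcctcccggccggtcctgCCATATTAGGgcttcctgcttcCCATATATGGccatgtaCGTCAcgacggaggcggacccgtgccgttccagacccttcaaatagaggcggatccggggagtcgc
EGR2 promoter: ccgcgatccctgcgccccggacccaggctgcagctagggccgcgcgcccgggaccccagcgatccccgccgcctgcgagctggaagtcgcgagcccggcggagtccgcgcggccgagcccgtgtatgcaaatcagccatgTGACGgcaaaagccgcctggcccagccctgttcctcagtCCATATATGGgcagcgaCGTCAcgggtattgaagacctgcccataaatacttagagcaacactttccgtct
NR4A3 promoter: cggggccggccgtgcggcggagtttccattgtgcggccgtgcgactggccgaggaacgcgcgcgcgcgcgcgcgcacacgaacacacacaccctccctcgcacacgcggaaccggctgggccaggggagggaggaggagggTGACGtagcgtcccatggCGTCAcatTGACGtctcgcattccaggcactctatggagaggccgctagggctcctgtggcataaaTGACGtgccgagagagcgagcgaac
EGR1 held 2 CArG boxes, at 105 to 96 and 83 to 74 bases before the start, with 2 TGACG cores and 1 EGR site, and this EGR2 window held 1 CArG box at 71 to 62 bases with 2 TGACG cores. Among 35116 promoter windows of this length, 1.16% held a CArG box and 0.0313% held 2 or more. NR4A3 held 4 TGACG cores and no CArG box. TGACG occurred in 21.2% of all windows and at least 4 times in 0.236%, and GCGNGGGCG in 8.42%. Entries were found for 7 of the 10 genes. IER2 had 1 TGACG core, and the windows of IER5, ZFP36, both NR4A1 starts and the other EGR2 starts held none of these motifs. AAAGGTCA, the monomer site of NR4A receptors (both strands), was in none of the members' windows and in 1.05% of all. Both NR4A1 windows lie before upstream starts, at 52022832 and 52037715, and not before its principal transcript, which begins at 52051402. The IER2 window also lies before an upstream start, at 13150411, whereas the principal transcript of IER2 begins at 13151975. A match is a description of these letters only.

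**Figure D2:**
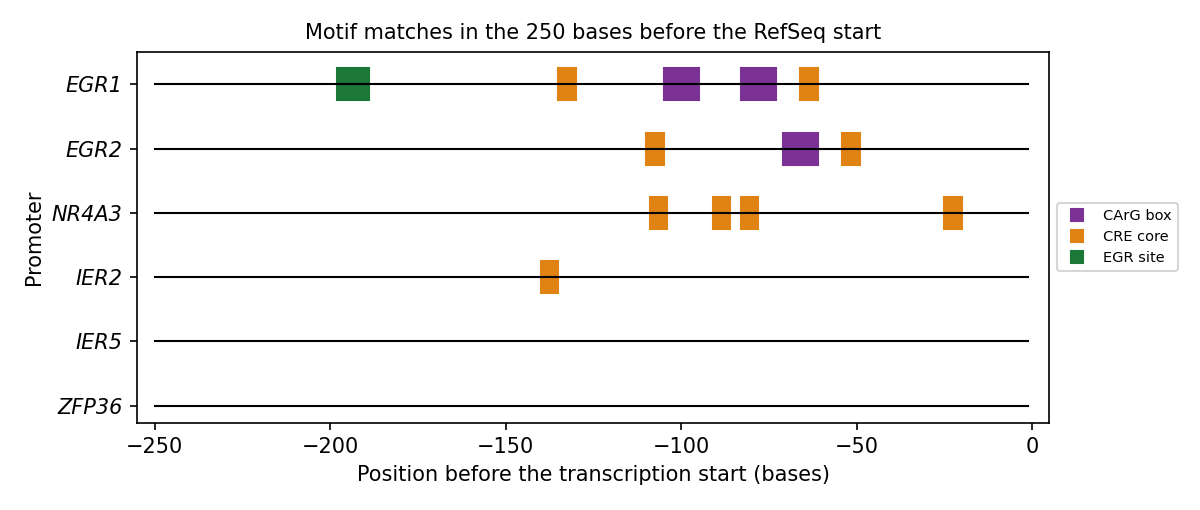
Position of motif matches in the 250 bases before a RefSeq start of 6 early genes, with CArG boxes in purple, cyclic AMP response element cores in orange and EGR sites in green. CArG boxes lie only in EGR1 and EGR2 among the windows drawn, and NR4A3 has 4 cyclic AMP response element cores.

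EGR3 (ENSG00000179388, chromosome 8, 22687659 to 22693302, minus strand), a family member needed for muscle spindle development, had 2.86, 5.34 and 62.7 in 2D and 14.8, 5.82 and 14.5 in 3D. Here 3D-2 was the lowest 3D library, whereas it was the highest for EGR1. The difference was 0.03 (SE 0.99, 95% interval -2.22 to 2.29, adjusted p = 0.98), and EGR2 and EGR3 reached the mean needed for testing only through 2D-3.

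The 3 NR4A receptors had unlike values. NR4A1 (Nur77, ENSG00000123358, chromosome 12, 52022832 to 52059507, plus strand), a receptor induced by growth factors and melanocortin, had 826, 757 and 7922 normalised counts in 2D and 948, 1574 and 1159 in 3D. The adherent libraries lay on both sides of the spheres, with 2D-3 at 10.01 times the mean of the other 2D libraries. The difference was -0.51 (SE 0.78, 95% interval -2.29 to 1.27, adjusted p = 0.66), -1.32 with edgeR (adjusted p = 0.26), -1.34 with DESeq2 and 0.60 (adjusted p = 0.048) without 2D-3. A non-coding gene on the other strand, AC025259.3, overlaps its last part and had 0, 2.14 and 86.4 in 2D and 6.49, 59.1 and 12.4 in 3D, with 8.45% of the 75-base windows of NR4A1 transcripts also in another gene, chiefly this one. The library kit does not mark strand, so reads of this overlap cannot be assigned to 1 of the 2 genes.

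NR4A2 (Nurr1, ENSG00000153234, chromosome 2, 156324432 to 156342348, minus strand), a receptor required for midbrain dopamine neurons, had 758, 924 and 2974 in 2D and 1523, 733 and 1583 in 3D. In this gene 2D-3 was highest and 3D-2 lowest. The difference was -0.08 (SE 0.51, 95% interval -1.23 to 1.08, adjusted p = 0.92). It was 0.53 (adjusted p = 0.20) without 2D-3 and 0.89 (adjusted p = 0.00025) without both. Leaving out the highest 2D and the lowest 3D library widens the difference by construction, so the last p-value is no support for a rise.

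NR4A3 (Nor1, ENSG00000119508, chromosome 9, 99821855 to 99866891, plus strand), whose gene is fused to EWSR1 in extraskeletal myxoid chondrosarcoma, had 1254, 1445 and 798 in 2D and 135, 116 and 128 in 3D, so every adherent library was above every sphere library. The mean fell from 1166 ± 333 (SD, n = 3) to 126 ± 9.22 (SD, n = 3), a log2 difference of -3.16 (SE 0.25, 95% interval -3.72 to -2.59, limma adjusted p = 0.00037). The fall passed in all 6 fits with a library left out, from -3.41 to -2.98. Here 2D-3 was the lowest 2D library, at 0.591 of the mean of the other 2. Whether the receptors differed from one another in their response was not tested.

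IER2 and IER5 belong to one protein family, to which IER3 is unrelated. IER2 (ENSG00000160888, chromosome 19, 13150415 to 13154908, plus strand), a nuclear protein of the growth response, had 1854, 1756 and 4640 in 2D and 1797, 3014 and 2281 in 3D. Its libraries overlapped, with 2D-3 highest and 3D-2 next, as in EGR1, NR4A1 and ZFP36. The difference was -0.10 (SE 0.37, 95% interval -0.94 to 0.75, adjusted p = 0.87), and 0.36 (adjusted p = 0.20) without 2D-3. The gene is reported as uncertain, since 26.1% of its windows also occur in AC011446.2, an antisense gene that was not analysed here.

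IER3 (IEX-1, ENSG00000137331, chromosome 6, 30743199 to 30744554, minus strand), a regulator of cell survival, was rare. It had 2.86, 6.41 and 7.20 normalised counts in 2D, from 3, 6 and 7 reads, and 26.9, 39.7 and 17.5 in 3D, from 29, 41 and 17 reads. All 3D libraries lay above all 2D libraries, and only the 3D level brought the gene to the mean needed for testing. IER3 rose from 5.49 ± 2.31 (SD, n = 3) to 28.1 ± 11.1 (SD, n = 3), a log2 difference of 2.16 (SE 0.53, 95% interval 0.97 to 3.36, limma adjusted p = 0.022). With 1 library left out the difference was 1.83 to 2.45 and the adjusted p 0.0082 to 0.083, and IER3 passed only when the library omitted was 2D-2 or 2D-3. It is also uncertain, with 21.2% of its windows shared, chiefly with IER3-AS1, which was not analysed here.

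IER5 (ENSG00000162783, chromosome 1, 181088712 to 181092899, plus strand), an intronless gene that modulates heat shock factor signalling, had 1958, 1501 and 1008 in 2D and 822, 962 and 847 in 3D. The cultures did not overlap, although 2D-3 lay close to 3D-2. The difference of -0.71 (SE 0.24, 95% interval -1.27 to -0.16) missed the threshold (adjusted p = 0.064). Without 2D-3 it was -0.97 (adjusted p = 0.0022). With NR4A3 and IER3 this made 3 of 10 genes without overlap, where 43.1% of all genes tested had none, 20.5% higher and 22.6% lower in 3D. IER3 was tested only because of its level in 3D and adds nothing to this count.

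ZFP36 (ENSG00000128016, chromosome 19, 39406813 to 39409412, plus strand), the decay factor, had 123, 143 and 870 in 2D and 212, 403 and 313 in 3D. The order of its libraries was that of EGR1: 2D-3, then all 3D libraries with replicate 2 first, then the other 2D libraries. The difference was 0.26 (SE 0.67, 95% interval -1.26 to 1.79, adjusted p = 0.79), and ZFP36 was higher in 3D by 1.17 (adjusted p = 0.010) without 2D-3.

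**Figure D3:**
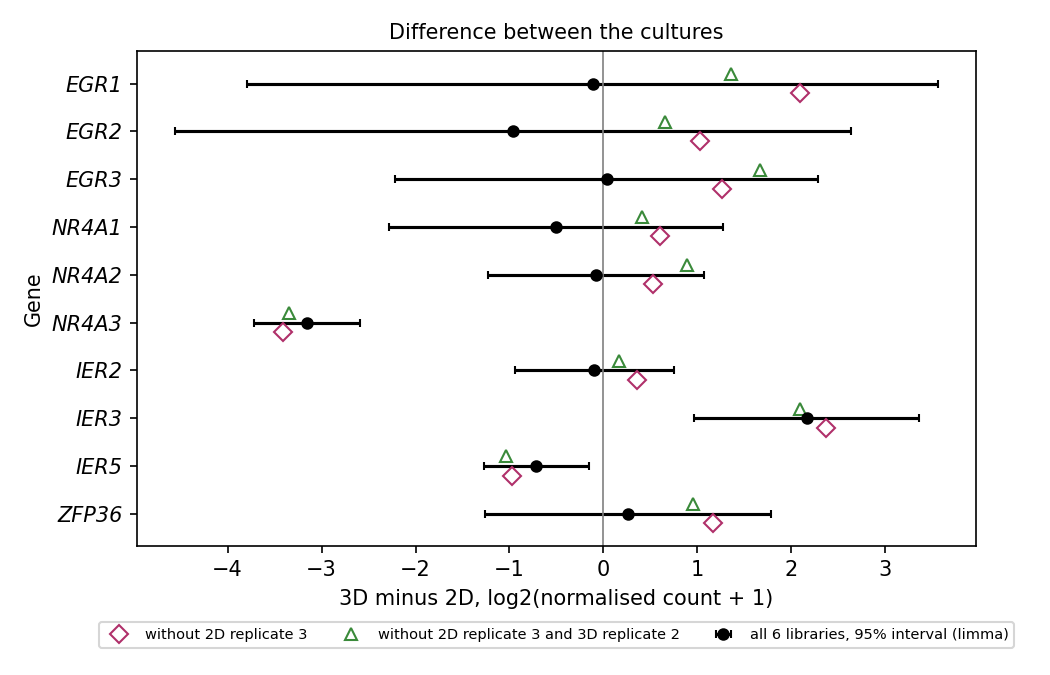
Difference 3D minus 2D of each early gene on the log2(normalised count + 1) scale, with all 6 libraries (black, 95% interval from limma), without 2D-3 (diamonds) and without 2D-3 and 3D-2 (triangles). NR4A3 and IER3 keep their side of 0 in the 3 fits, IER5 stays below 0, and the points of EGR1 move from -0.12 to 2.09 and 1.36.

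Without 2D-3, 4 of the 10 genes were higher in 3D (EGR1, NR4A1, IER3 and ZFP36), where 22.6% of all genes were, and 2 were lower (NR4A3 and IER5), where 23.0% were. The median difference of the 10 genes went from -0.11 to 0.81, while that of all genes tested went from -0.02 to -0.01. When 3D-2 was left out too, 6 were higher, against 28.4% of all genes, and 2 lower, against 29.5%. IER3 was tested only because of its level in 3D, and EGR3, one of the 6, only because of 2D-3. Neither gene adds anything to these counts of genes higher. As these 2 libraries stood apart in the values of the same genes, these counts are a description only. The differences of EGR1, EGR2, NR4A1, NR4A2 and IER2 were below 0 with all libraries and above 0 without 2D-3. Omitting a sphere library also turned the sign of some: EGR1 was at 0.56 and IER2 at 0.085 without 3D-1, and NR4A2 at 0.28 without 3D-2. None of these differences passed with all libraries.

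**Figure D4:**
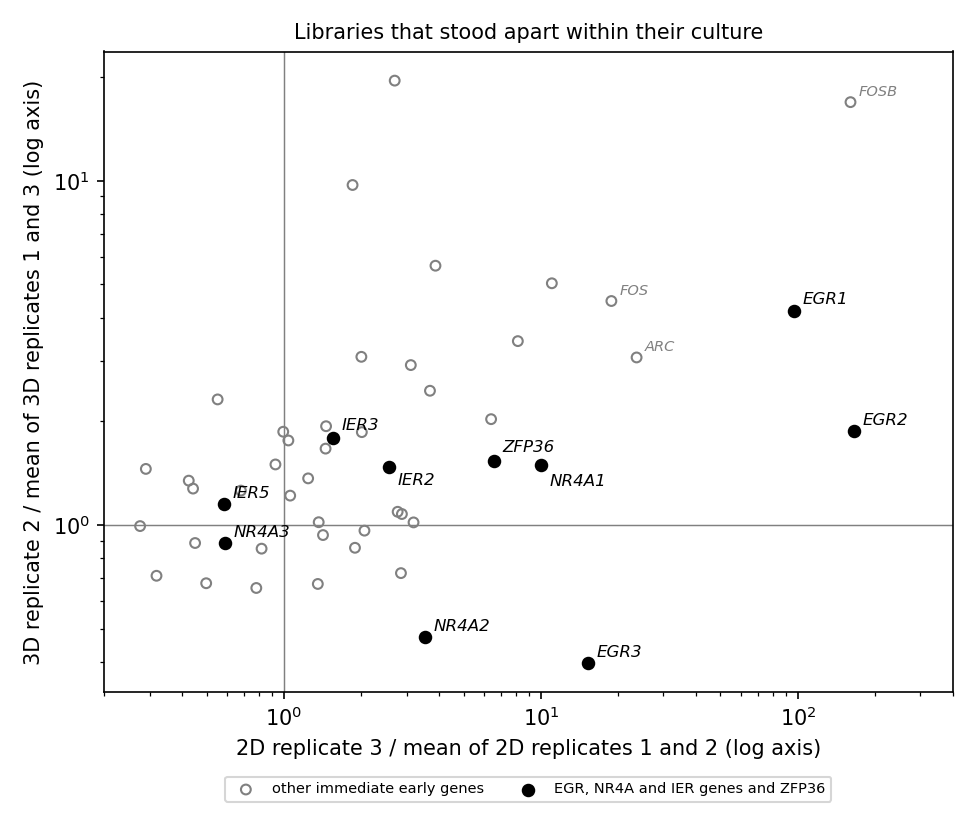
For each early gene (black) and each of the 40 other immediate early genes (grey), the ratio of 2D-3 to the mean of the other 2D libraries (horizontal, log axis) against the ratio of 3D-2 to the mean of the other 3D libraries (vertical, log axis). EGR1 lies at 96.6 and 4.196, NR4A3 and IER5 lie left of 1 on the horizontal axis, and FOS, FOSB and ARC lie with EGR1 at the upper right.

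Levels were also compared per kilobase of exon, with all annotated exons of a gene joined. For NR4A1 these span 7295 bases, against 2678 in its principal transcript, and for EGR1 3138 by either measure. The place of NR4A1 in the orders below thus depends on this choice, and its level is too low if the principal transcript dominates. By this measure IER2 led in every library but 1. In 3D the medians ran, in normalised counts per kilobase, from IER2 (743) through NR4A2 (384), EGR1 (214), IER5 (202), NR4A1 (159), ZFP36 (156), NR4A3 (20.3), IER3 (19.8) and EGR3 (2.98) to EGR2 (1.05). IER2 lay above all of NR4A2, ZFP36 above all of NR4A3, IER3 above all of EGR3 and EGR3 above all of EGR2, while the other neighbours in this order overlapped. In 2D the order of medians was IER2 (603), IER5 (358), NR4A2 (233), NR4A3 (199), NR4A1 (113), ZFP36 (71.2), EGR1 (66.7), IER3 (4.72), EGR3 (1.10) and EGR2 (0.289), and only IER2 and EGR1 lay wholly above the next gene. NR4A3 thus stood among the abundant early genes in 2D and beside the rare IER3 in 3D. In 2D-3 EGR1 was first, at 5350 per kilobase against 1510 for IER2.

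**Figure D5:**
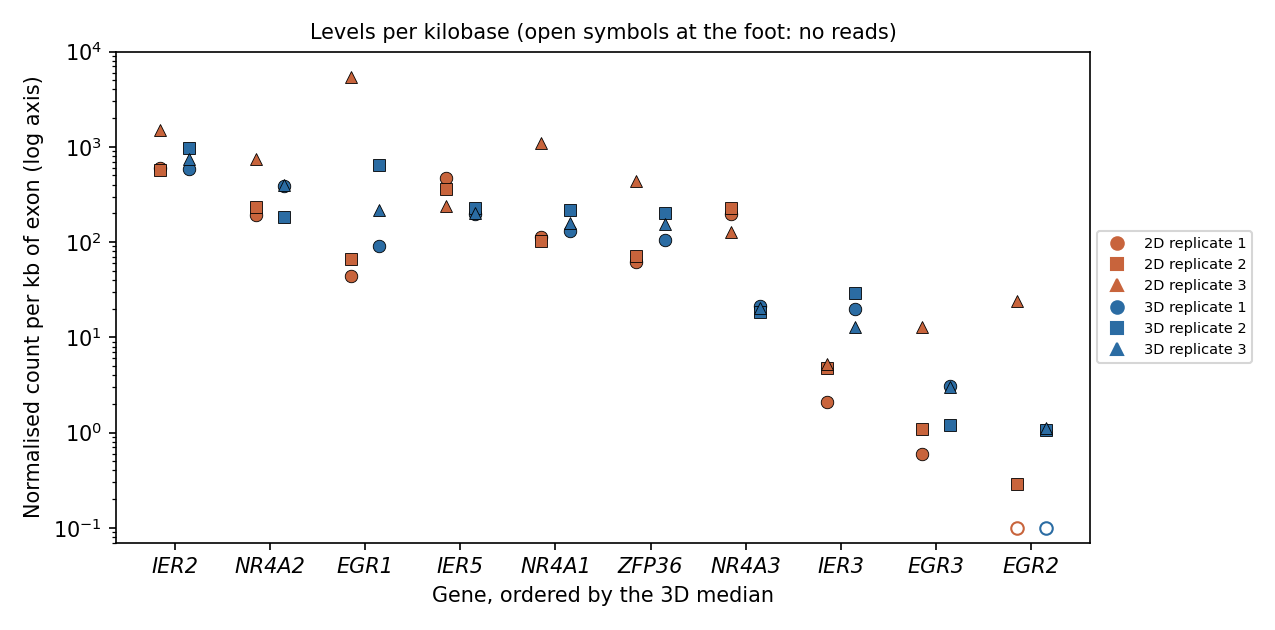
Normalised counts per kilobase of exon (log axis) of each early gene in each library, with genes in the order of their 3D medians and open symbols at the foot for libraries with no reads. NR4A3 drops from 126 to 229 in 2D to 18.4 to 21.3 in 3D, and EGR1 spans 44.04 to 5350 within 2D.

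Most of the genes are compact. The 10 spanned 1356 to 107905 bases, with a median of 5069, against 32628 for the 12713 protein-coding genes tested, and their principal GENCODE 29 transcripts had a median of 2 exons against 9. The NR4A genes had 8 or 9 exons, and EGR2 had the longest span. In the 3' untranslated region, TATTTAT, the heptamer bound by ZFP36 and read here on the transcript strand, was found in 5 of the 10: once in NR4A2, 2 times in NR4A3, 4 times in IER3, 4 times in IER5 and 3 times in ZFP36 itself. It occurred in 32.5% of 12497 tested protein-coding genes, in regions of all lengths. Among regions within 20% of the same length, 0.355% held at least as many as IER3, 1.22% as many as ZFP36, 3.48% as many as IER5, 25.4% as many as NR4A3 and 30.3% as many as NR4A2. The sites below are shown because IER3, IER5 and NR4A3 were the genes whose cultures did not overlap, with ZFP36 as the decay factor; capitals mark the first heptamer of each gene, in GRCh38. The stretch of IER3 also holds its next heptamer, in lower case at the end.
IER3, chr6:30743654-30743680 (minus): tcctaattaaTATTTATatgtatttat
IER5, chr1:181091981-181092007 (plus): cataataatgTATTTATagaattaaac
NR4A3, chr9:99865190-99865216 (plus): gctttgcctgTATTTATtgcaagacca
ZFP36, chr19:39409182-39409208 (plus): atgggcccttTATTTATgacgacttta
EGR1, EGR2, EGR3, NR4A1 and IER2 had no such heptamer. Of the 7 genes highest in 2D-3, NR4A2 and ZFP36 carried it.

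Among relatives and partners of these proteins, the related zinc finger factor WT1 fell. It had 87.7, 75.8 and 20.6 normalised counts in 2D and a single read in 3D, against 183 reads in 2D, a ratio of 190 (exact 95% binomial interval 33.7 to 7560, counting error only; limma adjusted p = 0.0018). The EGR corepressor NAB2, itself an EGR target, had 415, 380 and 525 in 2D and 759, 532 and 882 in 3D, a difference of 0.70 that missed the threshold (adjusted p = 0.062). NAB1, the paralogue IER5L, the paralogues ZFP36L1 and ZFP36L2 and the NR4A partner RXRA did not pass either, with differences of -0.41 to 0.44 (adjusted p of 0.077 to 0.72). EGR4 had at most 5.14 and RXRG at most 4.11 in any library, too low to test, and RXRB was not analysed here. Of this list, 0 rose and 1 fell among 7 tested, with a median of 0.16, where 12.5% of all genes tested rose and 11.6% fell. WT1 reached the mean needed for testing only through the 2D libraries. It thus adds nothing to this or the following counts of genes lower. By edgeR 1 rose and 1 fell, NAB2 being the gene called higher (adjusted p = 0.046). Without 2D-3, 2 rose and 2 fell, where 22.6% of all genes rose and 23.0% fell.

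Among the factors that act upstream of early genes, SRF, MRTFA, CRTC3 and ATF1 fell and ELK3 rose. Of 14 tested factors of the SRF, ternary complex, CREB and MEF2 groups, 1 rose and 4 fell, with a median of -0.31; over all genes 12.5% rose and 11.6% fell. SRF had 1854, 1789 and 1558 normalised counts in 2D and 959, 979 and 1045 in 3D, a difference of -0.80 (SE 0.16, adjusted p = 0.010). Its coactivator MRTFA fell by 0.94 (SE 0.18, adjusted p = 0.0088), the CREB coactivator CRTC3 by 1.05 (SE 0.15, adjusted p = 0.0036) and ATF1, named after its value was seen, by 0.92 (SE 0.27, adjusted p = 0.040). ELK3, a ternary complex factor that can repress SRF targets, had 146, 140 and 308 in 2D and 746, 1312 and 736 in 3D, a rise of 2.27 (SE 0.36, adjusted p = 0.0044). In 2D-3 SRF stood at 0.855, MRTFA at 0.781 and ELK3 at 2.16 of the mean of the other 2D libraries. Of the 14 factors, 1 was above both other 2D libraries by at least 1 on the log2 scale, namely ELK3, and 0 were below by as much. These are messenger RNA levels, and their part in the 2D-3 pattern was not tested. SRF lost its call without 2D-1 or 3D-1 (adjusted p of up to 0.057), and ATF1 without any library other than 2D-3. Those lower numbered 2 if 2D-1 or 3D-1 was omitted and 7 if 2D-3 was (23.0% of all genes in that fit), and edgeR called 2 higher and 4 lower. All genes called in either direction numbered 1549 without 2D-1 and 1307 without 3D-1, against 3766 with all libraries.

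Signalling genes of the ERK, p38 and cyclic AMP routes went in both directions. Of 20 tested, 2 rose and 3 fell, with a median of -0.07, where 12.5% of all genes tested rose and 11.6% fell. MC1R, the melanocortin receptor, rose by 1.33 (adjusted p = 0.046) and the phosphodiesterase PDE4B by 1.18 (adjusted p = 0.044). The phosphodiesterase PDE4D fell by 0.79 (adjusted p = 0.030) and the protein kinase A regulatory subunit PRKAR1A by 0.59 (adjusted p = 0.038). With 2D-1, 2D-2, 3D-1 or 3D-3 omitted 0 genes of this list passed in each direction, and with 3D-2 omitted 0 rose and 2 fell. Of all 15598 genes, 3766 were called in either direction with all libraries. That number was 1549, 1793, 1307 and 1190 without 2D-1, 2D-2, 3D-1 and 3D-3 in turn, and 2985 without 3D-2. With 2D-3 omitted 3 rose and 6 fell, where 22.6% of all genes rose and 23.0% fell. edgeR called 0 higher and 2 lower, and with equal library totals 2 were higher and 0 lower.

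Of 40 other immediate early genes, all tested, 11 fell (11.6% of all genes tested), 1 rose (12.5%) and 28 did not pass, with a median of -0.56 against -0.02 for all genes tested. ATF3, a stress-induced factor, fell by 3.06 (SE 0.18, adjusted p = 0.00011), PPP1R15A, which restarts translation after stress, by 3.20 (SE 0.45, adjusted p = 0.0028) and the small GTPase RHOB by 2.00 (SE 0.31, adjusted p = 0.0041). The phosphatase DUSP4, which curbs ERK signalling, rose by 2.42 (SE 0.34, adjusted p = 0.0030). The number lower became 7 if 2D-1 was omitted, 6 if 3D-1 was, 5 if 3D-3 was, 9 if 2D-2 was and 14 if 2D-3 or 3D-2 was. Of all 15598 genes, 3766 were called in either direction with all libraries. That number was 1549 without 2D-1, 1307 without 3D-1, 1190 without 3D-3 and 1793 without 2D-2. It was 7111 without 2D-3 and 2985 without 3D-2. The genes named here passed in each of the 6 fits. In 14 of these 40 genes 2D-3 was above both other 2D libraries by at least 1 on the log2 scale (7.73% of all genes). In 11 of the 40, not all of them among those 14, 3D-2 was so above both other 3D libraries (2.09% of all genes). Among the 10 early genes only EGR1 met the second condition.

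FOS, the AP-1 subunit, was the gene nearest to the mean profile of the 3 EGR genes among 11087 genes with a mean of at least 100, with a root mean square difference of 0.78 on the log2 scale over 6 libraries, where the profile itself had a root mean square size of 1.88. It had 1360, 1755 and 29289 normalised counts in 2D and 698, 5343 and 1691 in 3D. ARC, a cytoskeletal early gene of neurons, followed at 0.89 and SUSD2 at 1.00. The mean profile of the NR4A genes, which joins unlike patterns, lay nearest to MICAL2 (0.08), CDCA3 (0.15) and KIF20A (0.16). That of the IER genes, with a small size of 0.32, lay nearest to MTERF1 (0.05), UBA3 (0.06) and ABHD2 (0.07). These are distances between profiles of the same 6 libraries, which share the deviation of 2D-3. EGR2 and EGR3 reached the mean needed for testing only through 2D-3. The peak of the EGR mean profile in that library is thus in part set by the filter. Among the early genes themselves, NR4A1 and ZFP36 were the closest pair (0.46), followed by IER2 and ZFP36 (0.49).

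Among genes known as EGR targets, 12 were tested, of which 3 rose and 2 fell, with a median of 0.33. Over all genes tested, 12.5% rose and 11.6% fell. The matrix protein gene FN1 rose by 3.51 (adjusted p = 0.00083), the growth factor TGFB1 by 1.98 (adjusted p = 0.0079) and the hyaluronan receptor CD44 by 1.49 (adjusted p = 0.017), while the adhesion molecule ICAM1 fell by 1.76 (adjusted p = 0.0084) and the stress cytokine GDF15 by 3.14 (adjusted p = 0.015). CD44 and GDF15 passed only in the fits that omitted 2D-3 or 3D-2, and with any other library omitted 2 genes rose and 1 fell. In those latter fits 1190 to 1793 of all genes were called in either direction, against 3766 with all libraries. In 3 of the 12, 2D-3 was the highest of all libraries, near the 17.6% of all genes tested. Without 2D-3, 6 rose and 3 fell, where 22.6% of all genes rose and 23.0% fell.

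Of 8 listed NR4A targets only 3 were high enough to test. Of these, 2 rose and 0 fell, where 12.5% of all genes tested rose and 11.6% fell. The kinase PDK4 rose by 1.38 (adjusted p = 0.0087) and the muscle enolase ENO3 by 0.90 (adjusted p = 0.036), and FOXP3 did not pass, at -0.46 (adjusted p = 0.51). PDK4 lost its call without 3D-1 or 3D-3, and ENO3 without any library other than 2D-3. In the fits without 3D-1 or 3D-3, 0 of the 3 were called. All genes called in either direction then numbered 1307 and 1190, against 3766 with all libraries.

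Messenger RNAs known to be bound by ZFP36 went in both directions. Of 15 tested, 4 rose and 2 fell, with a median of 0.14, and IER3 and ZFP36 are themselves on this list. IER3, one of those that rose, reached the mean needed for testing only through 3D. IL6, one of those that fell, had a mean of 9.03 in 3D and reached it only through 2D. Both add nothing to the counts of this list. Over all genes tested, 12.5% rose and 11.6% fell. PTGS2, the inducible cyclooxygenase, rose by 3.31 (adjusted p = 0.00087), the cytokine LIF by 1.38 (adjusted p = 0.0029) and the urokinase PLAU, named after its value was seen, by 1.22 (adjusted p = 0.030). The kinase PIM1 fell by 1.60 (adjusted p = 0.00076) and the cytokine IL6 by 2.65 (adjusted p = 0.011). PLAU failed the threshold when 2D-1, 2D-2 or 3D-3 was omitted, and IL6 without 3D-3 (adjusted p = 0.051). The number higher was 2 without 2D-1 or 3D-3, fits that called 1549 and 1190 of all genes in either direction, against 3766 with all libraries. Without 2D-3 the number higher was 6 (22.6% of all genes in that fit), and 4 were lower (23.0%).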

How the data were processed

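RNA of M14 cells was sequenced from poly(A) libraries. Per the labels' protocols the kit was Illumina TruSeq v2, which does not mark strand. HISAT2, featureCounts 1.5.0 and DESeq2 with GRCh38/hg38 are named in the submitters' processing notes. Other versions and the annotation: not given in the sources used here. Each deposited value is a signal, namely a gene's reads after the authors' scaling with a library-wide size factor. From each library's step, 100% of values came out as whole reads within 0.01 of a read. Group and replicate came from the titles, and 6 empty columns were not used.

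A symbol was matched to 26506 genes, and 26702 were in GENCODE 29 (GRCh38), which gave positions, exons and transcripts. The test was limma 3.58.1 (R 4.3.3), lmFit and eBayes with a trend on log2(value + 1), culture as the only term, for genes with a mean of at least 10. Fits were repeated with a pseudocount of 0.1 or 10, without a filter, with a minimum mean of 50, TMM or equal-total scaling, a replicate block, robust eBayes, a threshold of 0.01, edgeR 4.0.16 (3657 genes called) and DESeq2 1.42.0 on recovered reads, and with libraries omitted. Floors of 3 reads for a count of 0 and exact 95% intervals cover counting error only. The fit was tested on simulated counts of 15598 genes with 200 changed. It recovered 16% of the 100 genes set to differ by 1 on the log2 scale and 71% of the 100 set to differ by 2, and called 8 unchanged genes. Promoters are RefSeq's (GRCh38.p14). Sequence work used Python 3.11.15 and pandas 2.3.3.

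The members and lists were chosen with earlier results of these data known. All 10 members are named. The relatives and partners are named whole. From each other list come at most 3 called genes per direction, ranked by adjusted p, and for each family the 3 genes nearest to its mean profile. The count of gaps of 2D-3 among genes that reach the mean of 10 without it was added after seeing the data. One gene of the signalling list is not reported here.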

Additional observations from a re-analysis of the deposited data

How the results depend on the processing

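Of 15598 genes, 3766 were called in all. The count was 1121 at a threshold of 0.01, 9041 without 2D-3 and 3D-2 together, and 1190 to 7111 with 1 library left out. Early genes called higher numbered 1, but 0 at a mean of at least 50 (IER3 was then not tested), 0 at a threshold of 0.01, 6 without both libraries and 0 to 4 with 1 library left out. Where IER3 or EGR3 is among them it adds nothing, for the reasons given above. Early genes called lower numbered 1, but 2 with DESeq2 (IER5 being added, adjusted p = 0.032), 2 without both libraries and 1 to 2 with 1 left out. Other immediate early genes called numbered 12, but 6 at a threshold of 0.01, 24 without both libraries and 6 to 16 with 1 left out.

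Of the 8 early genes that did not pass, 7 changed sign under some alternative, and IER5 did not (-1.04 to -0.49). With equal library totals, which moved the median of all genes from -0.02 to 0.11, EGR1 was at 0.016, NR4A2 at 0.053 and IER2 at 0.036. EGR3 was at -0.19 with a pseudocount of 10, -0.96 with edgeR and -0.98 with DESeq2, and ZFP36 at -0.24 with edgeR and -0.26 with DESeq2. Without both libraries EGR1 was at 1.36, EGR2 at 0.66, NR4A1 at 0.41, NR4A2 at 0.89 and IER2 at 0.17. With 1 library left out the ranges were -1.37 to 2.09 for EGR1, -2.22 to 1.02 for EGR2, -0.76 to 1.26 for EGR3, -1.09 to 0.60 for NR4A1, -0.46 to 0.53 for NR4A2, -0.34 to 0.36 for IER2 and -0.24 to 1.17 for ZFP36. NR4A3 kept its direction and call in all 17 alternatives, from -3.41 to -2.98. Apart from fewer samples where libraries were left out, no cause of these shifts was tested.

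Replicate numbers did not pair the libraries: deviations of same-numbered libraries correlated across genes at -0.08, -0.14 and 0.04. With the replicate block, 3222 genes were called, 1 early gene higher, 1 lower and 12 other immediate early genes, and 1 signalling gene higher and 1 lower, against 2 and 3. Depth limits EGR2, EGR3 and IER3, with at most 86 reads per library.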

Other observations

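Summed per kilobase of exon, the 10 early genes reached 9538 normalised counts per kilobase in 2D-3, against 1682 and 1640 in the other 2D libraries and 1535 to 2502 in 3D. EGR1 made up 56.1% of that sum in 2D-3, 25.6% in 3D-2, and 2.62% to 11.2% in the other libraries. These sums and shares depend on the joined exon lengths, above all that of NR4A1.

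CDCA3 and KIF20A, genes of cell division that lay near the mean profile of the NR4A receptors, had 455, 449 and 945 normalised counts (CDCA3) and 1310, 1209 and 2760 (KIF20A) in 2D, and 221 to 264 and 625 to 744 in 3D. Their 2D-3 values were the highest of the 6 libraries, and MTERF1, UBA3 and ABHD2 were highest in 3D-2. These genes were picked for nearness to the family profiles, so the place of their peaks is no separate result.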
